A study of Rattus norvegicus with 5 samples.

Results

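The genes described here are 7 cell cycle genes, taken by name and ID from a list: Mki67 (ENSRNOG00000028137), Top2a (ENSRNOG00000053047), Cdk1 (ENSRNOG00000000632), Ccnb1 (ENSRNOG00000058539), Ccna2 (ENSRNOG00000015423), Pcna (ENSRNOG00000021264) and Ccnd1 (ENSRNOG00000020918). They are 7 of the 15077 features found in all 5 expression tables, of which 3 are virus features. The tables hold IDs without symbols, so the symbols rest on that list. All 7 were detected in every library and in both cell classes followed here, myocyte-like and stromal-like cells.

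The study profiled single primary ventricular cells, myocytes and non-myocytes together, from wild type Sprague dawley rats of postnatal day 2. By its title it concerns how TBX18 turns ventricular myocytes into pacemaker cells, TBX18 being a T-box transcription factor of the developing sinoatrial node. All cultures had received an adenovirus, so no group is free of virus: Adeno-GFP for 3 days, Adeno-TBX18 for 3 days, Adeno-GFP for 14 days, Adeno-TBX18 for 14 days, and Adeno-TBX18 with 0.2 µM A83-01, which blocks TGF-beta type I receptor kinases. The last sample is placed at day 14 by its title and at 3 days by its treatment label, so the length of exposure to A83-01 is uncertain. Each group was 1 library, and how many animals or cultures stood behind it is not given in the sources used here, nor is the promoter that drives the virus genes. There was therefore no test between groups and no p-value, and the 95% intervals given with levels, ratios and shares cover counting error only, not differences between cultures.

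The cell cycle runs from G1 through DNA synthesis in S phase to G2 and mitosis, and each step has its own genes. Cyclin D1 (Ccnd1) acts in G1, where it activates kinases that release E2F factors. PCNA (Pcna) is the sliding clamp of the replication fork, cyclin A2 (Ccna2) acts in S phase and G2, and cyclin B1 (Ccnb1) with its kinase CDK1 (Cdk1) drives entry into mitosis. Topoisomerase II alpha (Top2a) untangles chromosomes, and Ki-67 (Mki67) coats them in mitosis and is the usual marker of dividing cells. Rodent heart muscle cells still divide around birth and mostly leave the cycle in the early postnatal period, while cardiac fibroblasts can keep dividing in culture. The first 5 genes named, Mki67, Top2a, Cdk1, Ccnb1 and Ccna2, are called mitotic genes below, since their transcripts are highest from late S phase to mitosis, and their summed level is given as the mitotic sum.

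Libraries held from 6424 to 8859 barcodes and from 104781421 to 202024200 UMIs (unique molecular identifiers, each the tag of a single captured transcript). After barcodes with few genes and likely doublets were left out, 34848 cells remained, and 32974 of them fell into the 2 classes. Clusters were named from marker IDs written from knowledge, since the gene table used here paired none of the tables' IDs with a symbol. All 9 myocyte markers were higher in myocyte-like cells and all 8 stromal markers were higher in stromal-like cells in every library. The summed myocyte markers reached from 49038 to 68315 UMIs per 1000000 (CPM) in myocyte-like cells and from 739.6 to 1011 CPM in stromal-like cells. The leukocyte gene Ptprc was at most 0.0769 CPM in either class. Myocyte-like cells numbered 4327, 3002, 1739, 1090 and 2119 in the order GFP day 3, TBX18 day 3, GFP day 14, TBX18 day 14 and TBX18 with A83-01, and stromal-like cells 2828, 2802, 3854, 6551 and 4662. Most cells of a class lay in a different cluster in each library, namely clusters 1, 5, 10, 9 and 7 for myocyte-like and 8, 6, 3, 2 and 0 for stromal-like cells. From 7 to 20 barcodes were shared by any pair of libraries, at most 0.280% of the smaller one.

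The promoters of the members that moved together are shown first. Of the 7 members, 5 had an entry in the RefSeq promoter table (build GRCr8), and Ccna2 and Ccnd1 did not. Each line holds the 250 bases before the annotated start, 5′ to 3′ on the gene's strand. Capitals mark 3 kinds of motif, searched on both strands. The cell cycle homology region, or CHR, was searched as TTTGAA and in its palindromic form as TTTAAA. The CCAAT box by its own letters was the next kind, and appears as ATTGG where it lies on the opposite strand. E2F motifs were searched in a first form as TTCCCGC, in another form as TTGGCGC and in a last form as TTCGCGC. Mki67 lies on the minus strand at chr1:199952594-199952843, Top2a on the minus strand at chr10:84473094-84473343, Cdk1 on the plus strand at chr20:19265043-19265292, Ccnb1 on the minus strand at chr2:33655226-33655475 and Pcna on the minus strand at chr3:139955821-139956070.
Mki67: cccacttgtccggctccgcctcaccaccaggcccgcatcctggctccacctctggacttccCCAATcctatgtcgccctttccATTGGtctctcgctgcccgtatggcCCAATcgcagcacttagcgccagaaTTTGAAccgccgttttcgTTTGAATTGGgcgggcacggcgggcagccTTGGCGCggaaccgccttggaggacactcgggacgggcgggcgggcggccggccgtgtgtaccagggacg
Top2a: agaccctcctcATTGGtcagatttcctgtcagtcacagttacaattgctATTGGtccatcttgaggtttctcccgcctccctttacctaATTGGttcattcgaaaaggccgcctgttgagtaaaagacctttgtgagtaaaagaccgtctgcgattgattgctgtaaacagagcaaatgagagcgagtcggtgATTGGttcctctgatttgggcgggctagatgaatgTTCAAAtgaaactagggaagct
Cdk1: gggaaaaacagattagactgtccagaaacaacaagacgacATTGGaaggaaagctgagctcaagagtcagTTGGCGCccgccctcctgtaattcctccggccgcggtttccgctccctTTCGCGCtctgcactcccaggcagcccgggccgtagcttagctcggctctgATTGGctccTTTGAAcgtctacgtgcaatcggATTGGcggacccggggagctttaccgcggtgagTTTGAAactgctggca
Ccnb1: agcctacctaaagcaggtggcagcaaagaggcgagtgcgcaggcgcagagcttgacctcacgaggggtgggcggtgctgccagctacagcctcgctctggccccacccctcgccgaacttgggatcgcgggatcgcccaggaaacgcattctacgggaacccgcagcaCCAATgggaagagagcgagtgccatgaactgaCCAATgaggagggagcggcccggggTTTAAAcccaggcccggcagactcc
Pcna: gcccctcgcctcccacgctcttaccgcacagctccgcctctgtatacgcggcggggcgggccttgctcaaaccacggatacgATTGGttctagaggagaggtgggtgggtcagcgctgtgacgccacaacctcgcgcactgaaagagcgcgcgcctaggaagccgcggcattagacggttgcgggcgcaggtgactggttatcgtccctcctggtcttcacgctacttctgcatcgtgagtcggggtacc

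A CHR motif was found in 4 of these 5 promoters, those of Mki67, Top2a, Cdk1 and Ccnb1, and in 25.4% of the 33469 promoters of the same length in the table. The Pcna promoter, printed for contrast, held none in this window. The CHR nearest the start ended 11 bases before it in Cdk1, 17 in Top2a, 20 in Ccnb1 and 94 in Mki67. In Ccnb1 it is the palindromic form, and in Mki67 a CHR shares 1 base with a reversed CCAAT box. A CCAAT box was found in all 5, with 4 copies each in Mki67 and Top2a, 3 in Cdk1, 2 in Ccnb1 and 1 in Pcna, and in 34.0% of all promoters. E2F motifs were found in Mki67 and Cdk1 and in 6.04% of all promoters. These matches describe letters in a window and say nothing of factors bound there.

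The level of each member in every library is given first for the mitotic genes, then for Pcna and Ccnd1. In myocyte-like cells Mki67 stood at 100.3 CPM (98.3 to 102.3) in the GFP library of day 3 and at 38.9 CPM (37.6 to 40.2) in the TBX18 library of day 3. At day 14 its level was 25.9 CPM (24.0 to 27.95) under GFP, 52.8 CPM (49.4 to 56.3) under TBX18, and 12.0 CPM (11.0 to 13.1) when A83-01 was added. None of these 5 intervals overlapped: the GFP library of day 3 was highest and the A83-01 library lowest. In stromal-like cells Mki67 stood at 55.4, 32.5, 19.99, 30.2 and 62.3 CPM in the same order, and there the A83-01 library was highest and the GFP library of day 14 lowest.

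**Figure D1:**
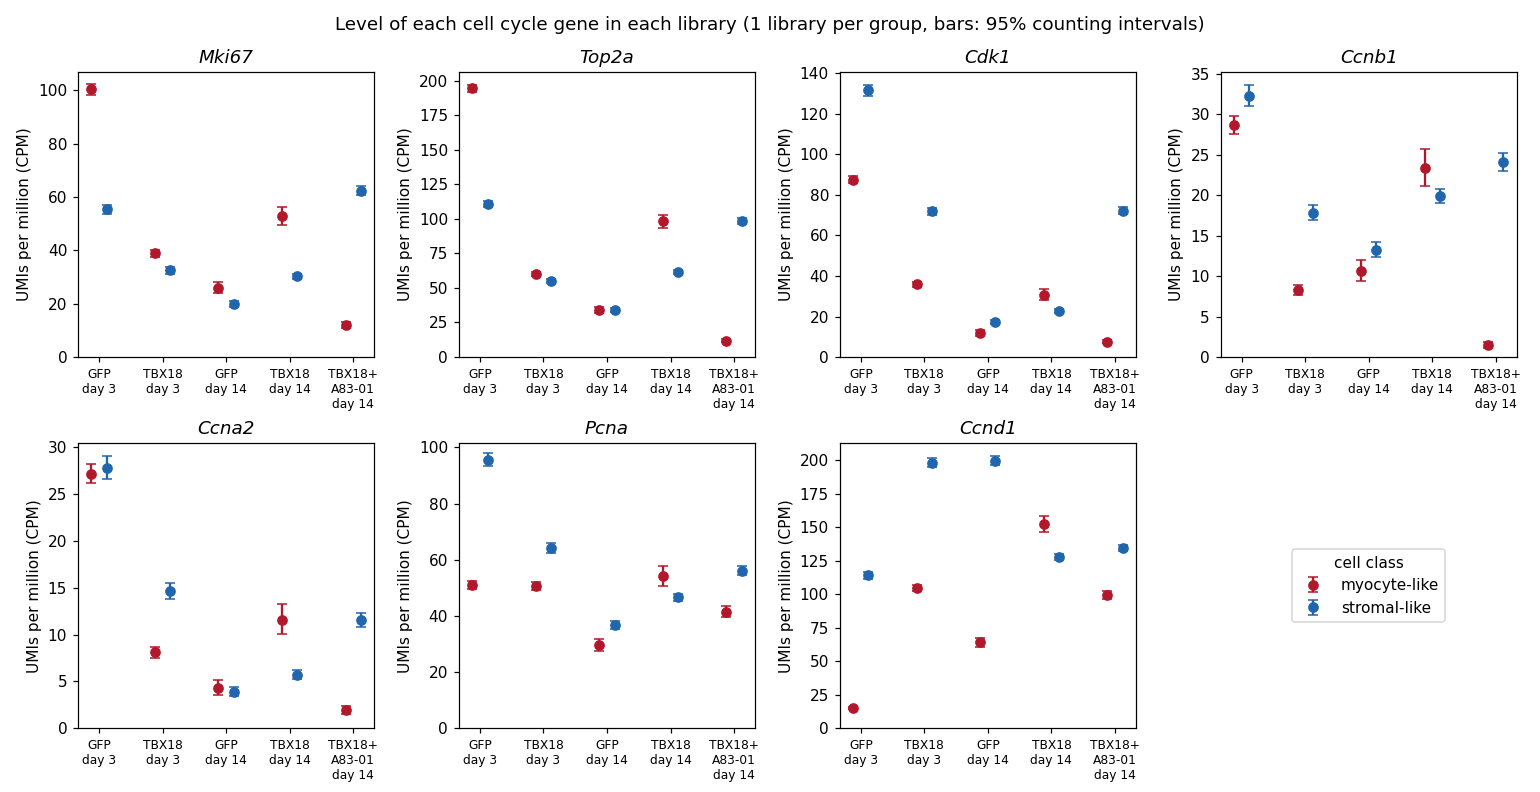
Level of each of the 7 genes in UMIs per 1000000 (CPM, linear axes from 0) in the 5 libraries, with red points for myocyte-like and blue points for stromal-like cells and bars for 95% counting intervals. In myocyte-like cells the 5 mitotic genes were highest in the GFP library of day 3 and lowest in the A83-01 library, where stromal-like cells of the same library stood far above them, while Ccnd1 was lowest in the myocyte-like cells of GFP at day 3, at 15.4 CPM.

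Top2a, the most abundant of the 7 in the myocyte-like cells of GFP at day 3, showed the same order there. Its level in myocyte-like cells was 194.4, 60.1, 34.1, 98.3 and 11.7 CPM in the order GFP day 3, TBX18 day 3, GFP day 14, TBX18 day 14 and A83-01. In stromal-like cells it was 110.8, 55.2, 34.3, 61.4 and 98.7 CPM. The myocyte-like and stromal-like levels of GFP at day 14 differed by a log2 ratio of 0.01 (-0.11 to 0.12), stromal over myocyte, and the A83-01 library had the widest gap between classes, with a log2 ratio of 3.07 (2.94 to 3.21).

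Cdk1 differed from Top2a in that stromal-like cells had more of it than myocyte-like cells in 4 of 5 libraries, the exception being TBX18 at day 14. Its level in myocyte-like cells was 87.6, 35.9, 11.9, 30.7 and 7.58 CPM in the order used above. In stromal-like cells it was 131.7, 72.0, 17.5, 22.7 and 72.3 CPM.

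The mitotic cyclins were lower in abundance. Ccnb1 in myocyte-like cells was 28.7, 8.30, 10.6, 23.4 and 1.48 CPM, and the last value rests on 61 UMIs. In stromal-like cells it was 32.3, 17.9, 13.2, 19.9 and 24.1 CPM. Ccna2 was 27.2, 8.10, 4.31, 11.6 and 1.94 CPM in myocyte-like cells and 27.8, 14.6, 3.92, 5.70 and 11.6 CPM in stromal-like cells. The intervals of Ccna2 in the 2 classes overlapped in both GFP libraries and were apart in the 3 TBX18 libraries.

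Pcna and Ccnd1 followed other orders. Pcna in myocyte-like cells was 50.9, 50.6, 29.6, 54.1 and 41.5 CPM, a range of less than 2-fold. In stromal-like cells it was 95.7, 64.2, 36.7, 46.6 and 56.1 CPM, highest in the GFP library of day 3. Ccnd1 in myocyte-like cells was 15.4, 104.9, 64.0, 152.2 and 99.3 CPM, so that the library with the highest mitotic genes had the lowest Ccnd1. In stromal-like cells Ccnd1 was 114.0, 198.1, 199.6, 127.7 and 134.4 CPM.

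TBX18 was compared with GFP at day 3 to see how the virus bears on cycling of either class soon after transfer. Among myocyte-like cells the mitotic sum was 151.2 CPM with TBX18 and 438.1 CPM with GFP, 2.90-fold lower (log2 ratio -1.54, -1.56 to -1.51). All 5 mitotic genes were more than 2-fold lower: the log2 ratio was -1.37 for Mki67, -1.70 for Top2a, -1.29 for Cdk1, -1.79 for Ccnb1 and -1.75 for Ccna2. With cells of day 3 held to the limits of the day 14 tables, Top2a had a ratio of -2.33. Pcna did not follow, with a log2 ratio of -0.01 (-0.07 to 0.05). Median-of-ratios scaling put Pcna at 0.09. Ccnd1 was 6.81-fold higher with TBX18 (log2 ratio 2.77, 2.69 to 2.85). Thus 5 of 7 members were at least 2-fold lower and 1 was at least 2-fold higher, where 3.94% and 4.53% of the 4395 genes whose mean reached 20 CPM in myocyte-like cells were. The median log2 ratio was -1.37 over the 7 members and -0.10 over those genes. Ccnb1 and Ccna2 lie under that minimum in myocyte-like cells, so 5 of 7 members are among the 4395, and in stromal-like cells 6 of 7 are, without Ccna2.

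**Figure D2:**
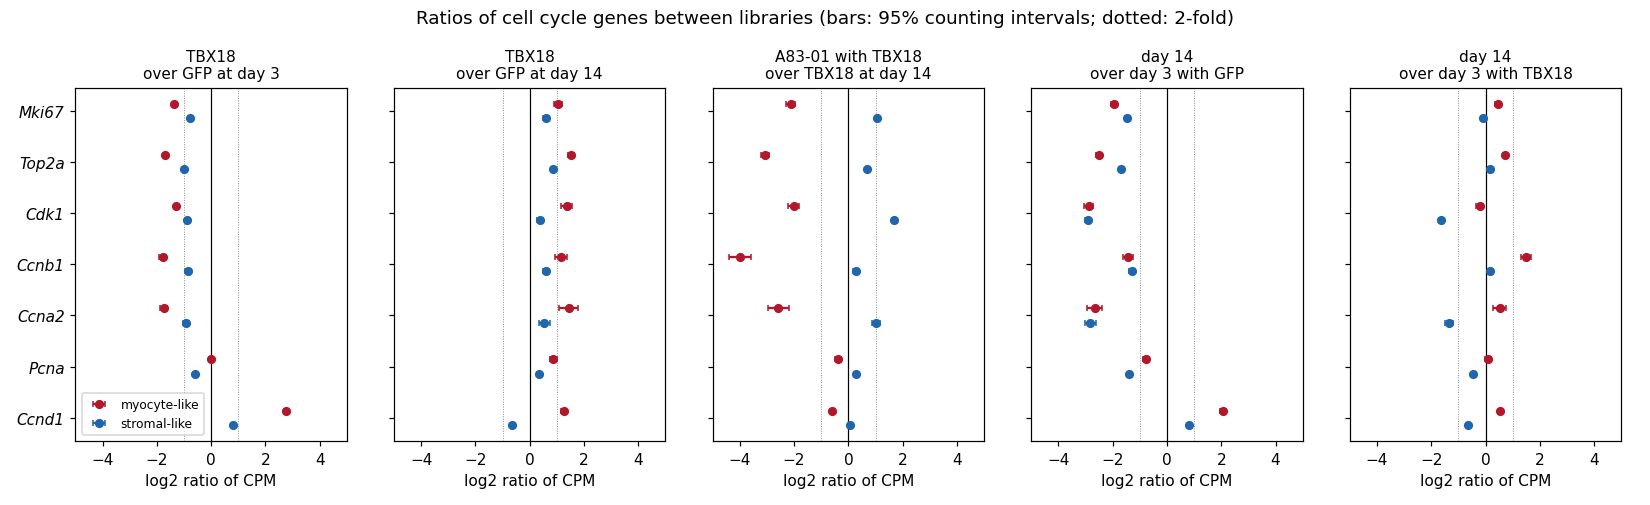
Log2 ratios of CPM between libraries for the 7 genes in 5 comparisons, with red points for myocyte-like and blue points for stromal-like cells, bars for 95% counting intervals and dotted lines at 2-fold. The mitotic genes lie left of 0 at day 3 and right of 0 at day 14 for TBX18 over GFP in both classes, and with A83-01 the classes lie on opposite sides.

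In stromal-like cells at day 3 the same genes were lower with TBX18 by a smaller amount. The mitotic sum was 192.2 CPM against 358.0 CPM, a log2 ratio of -0.90 (-0.93 to -0.87). Single mitotic genes lay between -1.005 for Top2a and -0.77 for Mki67, Pcna had a log2 ratio of -0.58 and Ccnd1 was higher, with 0.80. Of the 7 members 1 was at least 2-fold lower and 0 were at least 2-fold higher, against 0.926% and 1.21% of 4970 genes. That 1 gene, Top2a, sits at the limit and fell short of it under median-of-ratios scaling, with doublets kept, and with cells placed by their own markers. When the range of genes and UMIs per cell that bounds the day 14 tables was imposed on day 3, the mitotic sum had a log2 ratio of -1.78 and 5 members were past 2-fold. The share of all genes past 2-fold was not computed under other scaling or with other cells. Counts of members in such settings, here and below, therefore have no share beside them.

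At day 14 the comparison of TBX18 with GFP had the opposite sign for the mitotic genes. Among myocyte-like cells the mitotic sum was 216.7 CPM with TBX18 and 86.8 CPM with GFP, 2.50-fold higher (log2 ratio 1.32, 1.24 to 1.40). The log2 ratios were 1.03 for Mki67, 1.53 for Top2a, 1.37 for Cdk1, 1.14 for Ccnb1 and 1.43 for Ccna2, and Pcna, at 0.87, and Ccnd1, at 1.25, were higher too. The number at least 2-fold higher was 6 of 7, against 4.6% of genes, and 0 were at least 2-fold lower, against 1.07%. The median log2 ratio over all genes was 0.23, and under median-of-ratios scaling, which takes this shift out, 4 members were past 2-fold, without Mki67 and Ccnb1. With cells placed by their own markers 4 were as well, without Ccnb1 and Ccnd1.

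This day 14 result moved when myocyte-like cells with a high ratio of stromal to myocyte marker UMIs were left out. The summed stromal markers stood at 3451 CPM in the myocyte-like cells of TBX18 at day 14, against 780.4 to 1483 CPM in those of the other libraries. In a setting added after the data were seen, myocyte-like cells with stromal marker UMIs above 10% of their myocyte marker UMIs were left out. They are called stromal-rich below, though few myocyte marker UMIs can also bring a cell past this ratio. Those left out were 230 of the 1090 cells of TBX18 at day 14 and 31 of the 1739 of GFP at day 14. The mitotic sum was 540.3 CPM (516.6 to 564.7) in the 230 cells and 131.4 CPM (125.4 to 137.6) in the 860 kept. In the GFP library it was 683.3 CPM in the 31 cells and 75.9 CPM (72.5 to 79.3) in the 1708 kept. Over kept cells alone the log2 ratio of TBX18 over GFP was 0.79 (0.70 to 0.89), still above 0, and 0 of 7 members were past 2-fold. Ccnb1 had a log2 ratio of 0.36 there, Cdk1 of 0.77 and Ccna2 of 0.80. Ccnd1 was 324.4 CPM in the 230 cells and 106.7 CPM in the 860. In these libraries, cells with UMIs of at least 3 of the 5 mitotic genes had lower summed myocyte markers than the rest. These stood at 33927 against 50484 CPM with TBX18 and at 38235 against 59772 CPM with GFP. The parts of stromal RNA and of low myocyte markers in the shift were not tested, nor was what the cells left out are.

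In stromal-like cells of day 14 the mitotic sum was 140.0 CPM with TBX18 and 88.9 CPM with GFP (log2 ratio 0.65, 0.61 to 0.70). The mitotic genes ranged from 0.38 for Cdk1 to 0.84 for Top2a, and Pcna had a log2 ratio of 0.35. Ccnd1 went the other way, with 127.7 CPM against 199.6 CPM (log2 ratio -0.64, -0.68 to -0.61), opposite to its direction in myocyte-like cells. No member was past 2-fold in either direction, which 2.33% of genes were upward and 0.241% downward.

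A83-01 with TBX18 was then set against TBX18 alone at day 14. This comparison uses the same TBX18 library as the one against GFP, so the values of both are given for each gene and no relation between them is drawn. In myocyte-like cells the mitotic sum was 34.8 CPM with A83-01 and 216.7 CPM without, 6.23-fold lower (log2 ratio -2.64, -2.73 to -2.55). The log2 ratios were -2.13 for Mki67 (1.03 for TBX18 over GFP), -3.06 for Top2a (1.53), -2.02 for Cdk1 (1.37), -3.98 for Ccnb1 (1.14) and -2.58 for Ccna2 (1.43). Ccnb1 showed the widest gap, at 1.48 CPM against 23.4 CPM. All 5 mitotic genes were at least 2-fold lower and no member was at least 2-fold higher, where 11.2% and 0.501% of genes were. Ccnd1 was lower by less, with a log2 ratio of -0.62, and its size depended on the setting. It was -0.21 by median-of-ratios scaling, -0.24 with cells placed by their own markers, and -0.12 (-0.20 to -0.03) without the stromal-rich cells. The direction of Pcna depended on the scaling, with -0.38 (-0.50 to -0.27) by totals, while median-of-ratios scaling gave 0.02 (-0.09 to 0.14). The median log2 ratio over all genes was -0.41.

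With the stromal-rich cells left out, the myocyte-like mitotic sum had a log2 ratio of -1.91 (-2.01 to -1.81) for A83-01 over TBX18. All 5 mitotic genes remained at least 2-fold lower there, from -1.31 for Cdk1 to -2.94 for Ccnb1. The kept cells of the A83-01 library had a mitotic sum of 34.96 CPM (33.2 to 36.8), below the 75.9 CPM of the kept cells of GFP at day 14, a pair of libraries that differ in both virus and inhibitor.

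In stromal-like cells A83-01 went with higher mitotic genes. The mitotic sum was 269.1 CPM against 140.0 CPM with TBX18 alone, 1.92-fold higher (log2 ratio 0.94, 0.91 to 0.97). The log2 ratio was 1.67 for Cdk1, 1.04 for Mki67, 1.02 for Ccna2, 0.69 for Top2a and 0.28 for Ccnb1, while for TBX18 over GFP these were 0.38, 0.60, 0.54, 0.84 and 0.59. At least 2-fold higher were 3 of 7 members, against 2.52% of genes, and 0 were at least 2-fold lower, against 6.18%. Pcna, at 0.27, and Ccnd1, at 0.07 (0.04 to 0.11), lay near 0. The summed stromal markers also differed between these libraries, with 31726 CPM in stromal-like cells with A83-01 and 52563 CPM without, and the part of this in the result was not tested.

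The mitotic genes of both classes thus stood in opposite order in the A83-01 and TBX18 libraries of day 14. With TBX18 alone the stromal over myocyte log2 ratio of the mitotic sum was -0.63 (-0.68 to -0.58), and with A83-01 it was 2.95 (2.88 to 3.03). In the remaining libraries it was -0.29 (GFP day 3), 0.35 (TBX18 day 3) and 0.03 (GFP day 14, -0.04 to 0.11).

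The later day was set against the earlier one for either virus, although their tables differ in the range of genes and UMIs per cell. These comparisons use the same libraries as those of TBX18 with GFP, and their values are given on their own. With GFP the mitotic sum was lower at day 14 in both classes, by a log2 ratio of -2.34 (-2.40 to -2.27) in myocyte-like cells and of -2.01 (-2.05 to -1.97) in stromal-like cells. In myocyte-like cells 5 of 7 members were at least 2-fold lower, from -1.43 for Ccnb1 to -2.88 for Cdk1, against 7.51% of genes. The single member at least 2-fold higher was Ccnd1, with a log2 ratio of 2.06, against 10.6% of genes. In stromal-like cells 6 of 7 members were at least 2-fold lower and 0 at least 2-fold higher, against 9.66% and 18.2% of genes. Ccnd1 was the exception there, with a log2 ratio of 0.81. With the day 14 range imposed on day 3, the stromal-like ratios of Mki67 and Top2a were -0.73 and -0.91, 3 members were then at least 2-fold lower, and Ccnd1 was the 1 at least 2-fold higher. In myocyte-like cells the same range left 4 members at least 2-fold lower, without Ccnb1.

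With TBX18 the direction of the mitotic sum between the days depended on which cells were counted. In myocyte-like cells the mitotic sum had a log2 ratio of 0.52 (0.47 to 0.57), and 1 of 7 members, Ccnb1 with 1.49, was at least 2-fold higher, against 16.6% of genes, and 0 were at least 2-fold lower, against 2.53%. Left without its stromal-rich cells, the class had a ratio of -0.24 (-0.31 to -0.16), with the day 14 range 1.41, and by median-of-ratios scaling 0.15. The stromal-rich cells were 381 of the 3002 of day 3 and 230 of the 1090 of day 14. At day 3 their mitotic sum was 120.7 CPM (113.6 to 128.2), below the 154.7 CPM (152.0 to 157.5) of the cells kept. At day 14 it was above, with 540.3 CPM against 131.4 CPM. The name may not cover the same kind of cell on both days. Cluster 17, with 423 myocyte-like cells of TBX18 at day 3, had summed myocyte markers of 16202 CPM and stromal markers of 1978 CPM. In cluster 5, the main one of that library, these were 76326 and 1414 CPM. How many of the 381 cells lay in cluster 17 was not counted. Ccnb1 had a ratio of 0.46 (0.20 to 0.71) without the stromal-rich cells, so that 0 members were past 2-fold there. With the day 14 range 4 members were at least 2-fold higher, namely Mki67 (1.25), Top2a (1.75), Ccnb1 (2.30) and Ccna2 (1.44). The share of all genes past 2-fold with that range was not computed. In stromal-like cells the ratio was -0.46 (-0.49 to -0.42), with Cdk1 at -1.66 and Ccna2 at -1.36 the 2 members at least 2-fold lower, against 6.42% of genes, and 0 of 7 at least 2-fold higher, against 25.5%. The day 14 range turned the stromal-like ratio to 0.97 (0.92 to 1.02) and put 3 members, Mki67, Top2a and Ccnb1, at least 2-fold higher. No member was at least 2-fold lower there, with Cdk1 at -0.59 and Ccna2 at 0.0079.

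Cells of day 3 with UMIs of at least 3 of the 5 mitotic genes lay beyond the day 14 range more often than the rest. They were chosen on all their UMIs, without thinning, so a deeper cell was more likely to be chosen. The contrast in depth is thus partly built in, and how much of it is was not tested. Day 14 cells reached at most 5592 genes and 33951 UMIs, and day 3 cells went beyond. The UMIs are those of the 15077 shared features. Genes were counted over all features listed for a library, 16900 at day 14 and 15243 at day 3. In the TBX18 library of day 3, 55.7% of myocyte-like cells with UMIs of at least 3 of the 5 mitotic genes lay above these limits, against 28.0% of the rest. In stromal-like cells of that library the shares were 64.0% and 19.8%. In the GFP library of day 3 they were 22.0% and 5.65% for myocyte-like cells and 32.1% and 8.84% for stromal-like cells.

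How the UMIs were spread over cells was examined next, since a summed level can come from many cells or from few. The cells with UMIs of at least 3 of the 5 mitotic genes held from 85.9% to 98.3% of all mitotic UMIs of their class and library. They were deeper than the rest in every class and library, which choosing them without thinning favours. The median UMIs were, for example, 28688 against 21866 in the myocyte-like cells of GFP at day 3. Shares were therefore taken after each cell was thinned to 5000 UMIs, with 0 to 48 shallower cells left out per class and library. In myocyte-like cells the share with at least 3 of 5 was 10.8% (9.92 to 11.8) with GFP at day 3 and 5.11% (4.35 to 5.97) with TBX18 at day 3. At day 14 it was 2.24% (1.60 to 3.05) for GFP, 4.95% (3.74 to 6.42) for TBX18, and in the A83-01 library 1.13% (0.727 to 1.68). The order of the libraries was that of the mitotic sum in myocyte-like cells except that TBX18 at day 3 and day 14, whose intervals overlapped, changed places. Without thinning the shares were 13.3%, 9.86%, 3.05%, 6.33% and 2.50%.

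**Figure D3:**
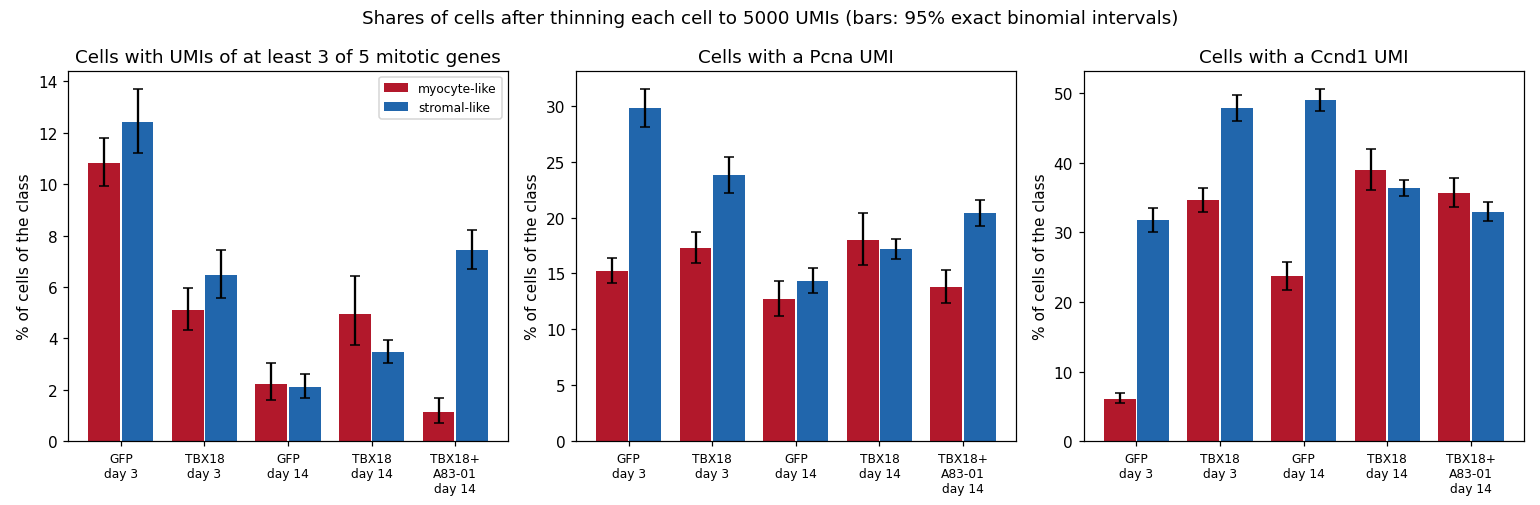
Shares of myocyte-like (red) and stromal-like (blue) cells, in percent of the class, with UMIs of at least 3 of the 5 mitotic genes (left), of Pcna (middle) and of Ccnd1 (right), after each cell was thinned to 5000 UMIs, with 95% exact binomial intervals as bars. The share with at least 3 of 5 ran from 1.13% to 10.8% in myocyte-like cells, and with A83-01 the stromal-like share, at 7.44%, stood above that of the other day 14 libraries.

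In stromal-like cells the share was 12.4% (11.2 to 13.7) with GFP and 6.45% (5.57 to 7.44) with TBX18 at day 3. At day 14 it was 2.10% (1.67 to 2.61) for GFP, 3.48% (3.05 to 3.96) for TBX18, and in the A83-01 library 7.44% (6.71 to 8.23). Unthinned, these were 20.8%, 11.4%, 2.85%, 4.50% and 8.86%. The thinned share of cells with a Mki67 UMI ran alike, with 12.4%, 7.41%, 3.28%, 6.88% and 2.41% of myocyte-like and 12.7%, 6.74%, 2.98%, 5.04% and 8.56% of stromal-like cells. A cell type free of Mki67 was not at hand, so the background that free RNA gives in droplets was not measured.

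Cells with a Mki67 UMI carried the other mitotic genes far more often. After thinning, from 49.0% to 80.7% of them had a Top2a UMI, against 0.892% to 6.21% of cells without one, and the lowest value was that of myocyte-like cells with A83-01. Pcna was found in 24.6% to 66.7% of cells with a Mki67 UMI and in 11.3% to 26.5% of cells without. Ccnd1 differed by library: the intervals of cells with and without a Mki67 UMI overlapped in 7 of 10 combinations. In the TBX18 library of day 3, for example, it was found in 33.8% (27.6 to 40.5) of myocyte-like cells with a Mki67 UMI and in 34.7% (32.9 to 36.5) of those without. The intervals were apart in the other 3. In the myocyte-like cells of GFP at day 3 it was found in 3.38% (2.01 to 5.29) and 6.52% (5.75 to 7.36), less often in cells with a Mki67 UMI. It was found more often in them in the myocyte-like cells of TBX18 at day 14, with 53.3% (41.5 to 65.0) and 37.9% (34.9 to 41.0), and in the stromal-like cells with A83-01, with 42.4% (37.5 to 47.4) and 32.0% (30.6 to 33.4).

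Within the cells with at least 3 of 5, Pcna and Ccnd1 are the members that did not define them. Pcna was higher in these cells than in the rest in all 10 combinations of class and library, for example 183.5 CPM against 24.97 CPM in the myocyte-like cells of GFP at day 3. Its highest value was in the myocyte-like cells with A83-01, at 393.8 CPM (359.3 to 430.6), against 281.9 CPM (255.8 to 309.9) with TBX18 alone. In the same cells Ccnb1, which is among the genes that chose them, was 41.8 CPM (31.2 to 55.0) with A83-01 and 251.7 CPM (227.1 to 278.2) without, and Top2a was 347.8 CPM and 1080 CPM. These are 53 and 69 cells.

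**Figure D4:**
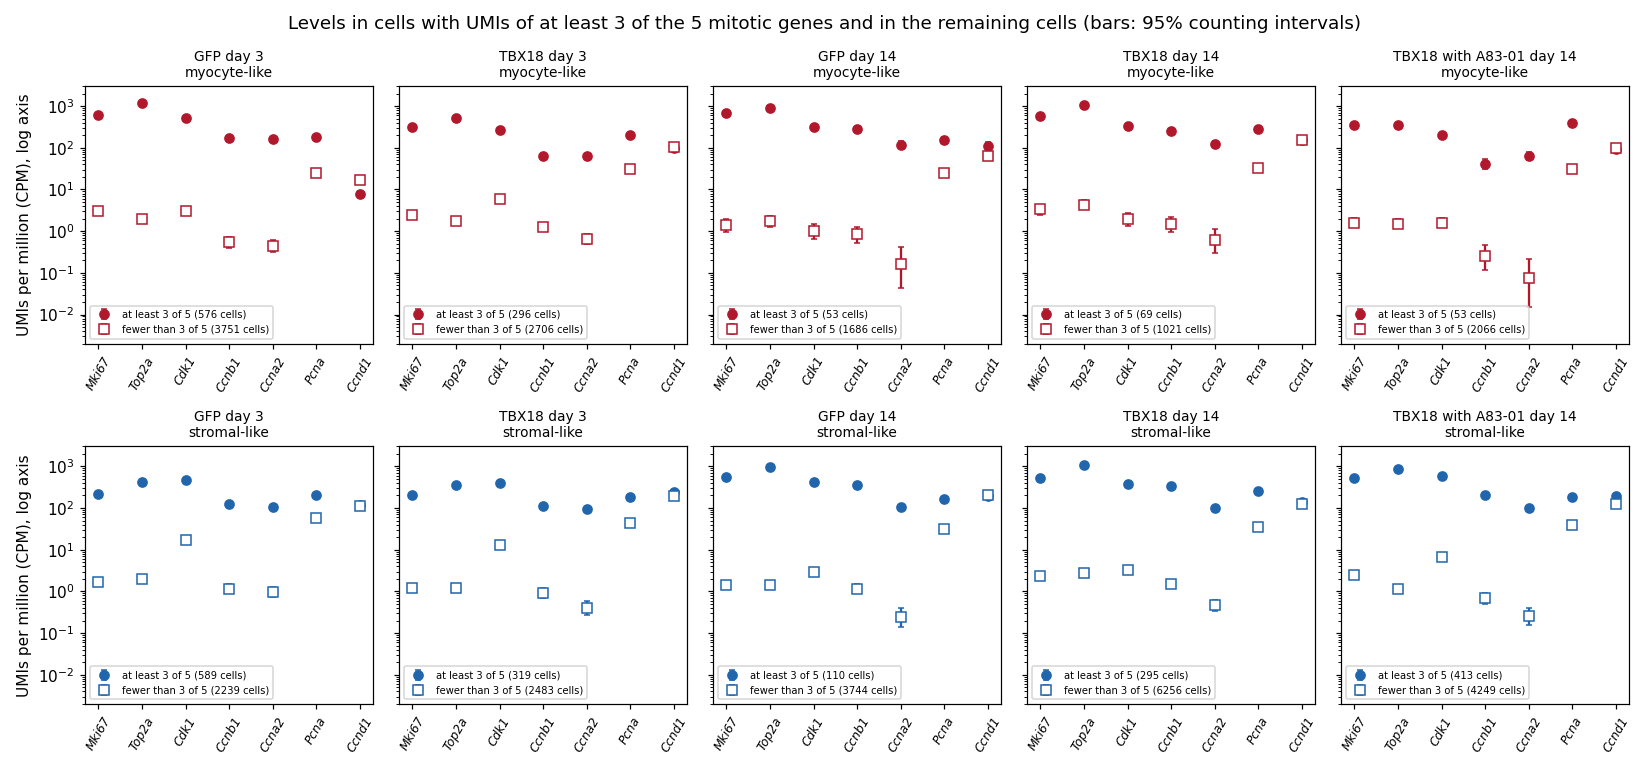
Levels of the 7 genes in UMIs per 1000000 (CPM, log axis) in cells with UMIs of at least 3 of the 5 mitotic genes (filled circles) and in the remaining cells (open squares), for each library and class, with 95% counting intervals as bars. The 5 mitotic genes chose the cells and differ by construction, Pcna was higher in the filled circles in all 10 panels and Ccnd1 was higher in the open squares in the GFP myocyte-like panel of day 3, at 16.9 CPM against 7.77 CPM.

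Ccnd1 differed between the cells with at least 3 of 5 and the rest in both directions. Intervals were apart in 5 of the 10 combinations, with higher Ccnd1 in the cells with at least 3 of 5 in 4 and lower in 1. In the myocyte-like cells of TBX18 at day 3 it was 97.4 CPM (91.4 to 103.7) and 105.8 CPM (103.5 to 108.1), so that its high level there was carried by both kinds of cell. In those of GFP at day 3 it was 7.77 CPM (6.47 to 9.25) and 16.9 CPM (16.0 to 17.8), lower in the cells with at least 3 of 5. In the stromal-like cells of TBX18 at day 3 it was 244.2 CPM and 189.8 CPM, in the myocyte-like cells of GFP at day 14 it was 112.6 CPM (91.9 to 136.5) and 62.2 CPM (59.2 to 65.4), and in the stromal-like cells with A83-01 it was 192.3 CPM and 126.9 CPM, higher in the cells with at least 3 of 5 each time. The gap was narrow in the stromal-like cells of TBX18 at day 14, at 139.5 CPM (130.0 to 149.6) and 127.1 CPM (124.9 to 129.3), also higher in the cells with at least 3 of 5. The stromal markers of the myocyte-like cells with at least 3 of 5 stood at 3732 CPM in TBX18 at day 14 and those of the rest at 3424 CPM, and in the A83-01 library at 976.2 and 774.4 CPM.

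The clusters were built without the 7 members, but other cell cycle genes were not left out, and 4 clusters stood out by their mitotic sum. Cluster 13 had 619 myocyte-like cells, all of GFP at day 3, and a mitotic sum of 2522 CPM over the cluster. Cluster 23 gathered myocyte-like cells of day 14, with 48 cells of GFP, 55 of TBX18 and 35 of A83-01. Cluster 11 held stromal-like cells of day 3, 604 of GFP and 281 of TBX18, and cluster 12 those of day 14, 102 of GFP, 259 of TBX18 and 404 of A83-01. Myocyte-like cells of TBX18 at day 3 were mainly in cluster 5, which held 2532 of them, rather than in 1 of these 4 clusters. Its mitotic sum was 160.2 CPM, against 7.88, 5.30, 25.9 and 7.50 CPM in clusters 1, 10, 9 and 7, the main myocyte-like clusters of the other libraries. This depended on leaving the members out of the clustering. When they were kept in, the cluster with most of these TBX18 cells, 2408 of them, had lower levels of all 5 mitotic genes than cluster 5. Mki67 stood there at 8.62 CPM against 42.3 CPM in cluster 5, and Top2a at 8.95 CPM against 65.7 CPM. Without thinning, 296 of the 3002 myocyte-like cells of TBX18 at day 3 had UMIs of at least 3 of the 5 mitotic genes.

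Within the myocyte-like class, cells in which a transcript of the virus was seen were set against the remaining cells. With EGFP, the mitotic sum was 498.8 CPM (493.2 to 504.5) in cells with a UMI and 346.6 CPM (340.8 to 352.4) in cells without at day 3, and 59.2 CPM and 112.7 CPM at day 14. With TBX18 or its ZsGFP reporter, it was 83.4 CPM (80.7 to 86.3) in cells with and 212.8 CPM (208.6 to 217.1) in cells without at day 3. It was 90.9 and 245.0 CPM at day 14, and 14.2 and 38.4 CPM with A83-01. The cells with a virus UMI thus had the lower mitotic sum in all 3 TBX18 libraries and in the GFP library of day 14, and the higher one in the GFP library of day 3. Ccnd1 was alike in both kinds of cell of TBX18 at day 3, at 104.5 CPM (101.4 to 107.6) and 105.2 CPM (102.3 to 108.2). Cells with a virus UMI were deeper in every library, and a cell without one cannot be taken as free of virus, so the part of depth was not tested.

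Across the 10 profiles of class and library the members fell into a tight group and a loose remainder. Pearson's r of log2 CPM was 0.98 for Mki67 with Top2a and lay between 0.78 and 0.98 for all pairs of mitotic genes. For Pcna with a mitotic gene it lay between 0.51 and 0.83, and for Ccnd1 with any other member between -0.46 and 0.14. The points share libraries, total counts and depth, and the r describes them only. Among genes whose mean reached 20 CPM, those most like the mean of the mitotic genes were ENSRNOG00000008165 and ENSRNOG00000006048, both with an r of 0.99 over the 10 profiles. The ID most like Pcna was ENSRNOG00000014193 (r 0.95) and the one most like Ccnd1 was ENSRNOG00000019536 (r 0.94). These IDs have no symbol here.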

How the data were processed

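The 5 single-cell libraries were made with the Chromium 3' kit v3.1 and sequenced on a NovaSeq instrument, per the labels' protocols. STAR 2.7.8a, Partek and the genome build Rnor_6.0 are named in the submitters' processing notes, and their roles and the filters on cells are not given in the sources used here. The values of day 3, as the authors deposited them, are estimated counts of UMIs by their look (nearly all whole, with totals that differ), and the members had no fractional value. Those of day 14 were deposited as log2 of CPM plus 1 per cell, where whole counts had been assumed in the design, and counts were recovered by taking a cell's most common nonzero value as 1 UMI, which made from 99.68% to 99.74% of values whole within 0.05.

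Barcodes with at least 500 genes were kept. Scrublet's own threshold marked under 0.5% of 3 libraries, so cells above the top 6% of doublet scores were left out of each. Cells were clustered with scanpy 1.11.5 and leidenalg 0.10.2 (2000 variable genes, 30 components, 20 neighbours, resolution 1) without the members and virus features. A cluster took a class where the summed markers of that class were at least 5 times those of the other and Ptprc was under 20 CPM. Clusters shallow for their libraries took no class. By this, cluster 21, with 189 cells at a median of 0.148 of their library's median UMIs, was left out. Its summed myocyte markers were 51469 CPM and its stromal ones 791 CPM. The rule was set after the clusters were seen. Other cell cycle gene lists could not be matched to IDs and were not analysed here. UMIs were summed per library and class, with exact Poisson and binomial 95% intervals. Ratios are of CPM without a pseudocount; those over all genes used a pseudocount of 0.5 CPM and genes whose mean reached 20 CPM. Scripts were tested on simulated data. Named genes are the 7 members, the virus features and, by ID, the genes most correlated with them. The members and lists were chosen with earlier results of these data known. Alternatives covered scaling, cell filters, doublets, clustering genes, class placement, depth and the minimum level.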

Additional observations from a re-analysis of the deposited data

Results flagged for a closer look

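Opposite directions of a ratio in 2 settings are listed here, and none of these differences was tested, since each group was 1 library. For TBX18 over GFP in myocyte-like cells, log2 ratios below 0 at day 3 stood beside ratios above 0 at day 14. They were -1.37 and 1.03 for Mki67, -1.70 and 1.53 for Top2a, -1.29 and 1.37 for Cdk1, -1.79 and 1.14 for Ccnb1, and -1.75 and 1.43 for Ccna2. The mitotic sum had -1.54 and 1.32.

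In stromal-like cells the values at day 3 and day 14 were -0.77 and 0.60 for Mki67, -1.005 and 0.84 for Top2a, -0.87 and 0.38 for Cdk1, -0.85 and 0.59 for Ccnb1, and -0.93 and 0.54 for Ccna2. Pcna had -0.58 and 0.35, the mitotic sum -0.90 and 0.65, and Ccnd1 went from 0.80 to -0.64.

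The classes had opposite signs for Ccnd1 in TBX18 over GFP at day 14, with 1.25 in myocyte-like and -0.64 in stromal-like cells. With A83-01 over TBX18 they did so for every member, with myocyte-like before stromal-like values of -2.13 and 1.04 for Mki67, -3.06 and 0.69 for Top2a, -2.02 and 1.67 for Cdk1, -3.98 and 0.28 for Ccnb1, and -2.58 and 1.02 for Ccna2. Pcna had -0.38 and 0.27, where median-of-ratios scaling turned the first to 0.02, Ccnd1 had -0.62 and 0.074, and the mitotic sum -2.64 and 0.94. The myocyte-like ratio of Ccnd1 was -0.12 without the stromal-rich cells.

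Barcodes with under 500 genes, which were left out of the main comparisons, held member UMIs above the 3 that a count of 0 allows. A setting without this minimum is described further below. In the GFP library of day 3, 731 such barcodes held 11 UMIs of Mki67, 11 of Top2a, 18 of Cdk1, 7 of Pcna and 6 of Ccnd1. In the TBX18 library of day 3, 292 such barcodes held 5 UMIs of Pcna and 7 of Ccnd1. No level there was above 3.45 CPM.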

How the results depend on the processing

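The ratios of members and mitotic sums were recomputed under 7 alternatives, 560 values in all: 413 stayed within the interval of the reported value, 135 moved beyond it and 12 changed sign from a value whose interval excluded 0. Keeping the members in the clustering moved none. Dropping the minimum of 500 genes moved none of its 80 values, but this was no test of the barcodes let in. In that run a cluster with 749 barcodes of GFP and 331 of TBX18 at day 3 had a median of 7349.5 UMIs. The rule on shallow clusters kept it out of both classes, so its barcodes did not enter the ratios. The mitotic sum of TBX18 over GFP at day 3 in myocyte-like cells had a log2 ratio of -1.531 in that run, against -1.535 with the minimum. Leaving out stromal-rich myocyte-like cells left stromal-like values unchanged by design, and these are counted among the 413 all the same. The cause of each shift was not tested.

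Log2 ratios of the mitotic sum that moved are given by comparison, as scaling by median of ratios (M), day 14 range (R), doublets kept (D), cells placed by their own markers (P) and stromal-rich myocyte-like cells left out (S, added after seeing the data). TBX18 over GFP at day 3 gave M -1.44, R -2.04, D -1.57, P -1.50 and S -1.49 in myocyte-like and M -0.81, R -1.78 and D -0.87 in stromal-like cells. At day 14 it gave M 1.09 and S 0.79, and M 0.52. A83-01 over TBX18 gave M -2.23 and S -1.91, and M 1.03 and D 0.99. Day 14 over day 3 with GFP gave R -1.94, D -2.41 and S -2.52, and M -2.06, R -1.46 and P -1.95. With TBX18 it gave M 0.15, R 1.41, P 0.46 and the reversed S -0.24, and M -0.76, D -0.54 and the reversed R 0.97.

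Single members that changed sign from such a value were Pcna for A83-01 in myocyte-like cells (M 0.025) and several for day 14 over day 3 with TBX18. These were, in myocyte-like cells, Mki67 (S -0.21), Top2a (S -0.069), Ccna2 (S -0.36), Ccnd1 (S -0.012) and Cdk1 (R 0.53), and in stromal-like cells Mki67 (R 1.498), Ccna2 (R 0.0079), Top2a (M -0.15) and Ccnb1 (M -0.14). Pcna also changed sign in myocyte-like cells where its reported interval included 0, for TBX18 over GFP at day 3 (-0.01, M 0.087) and for day 14 over day 3 with TBX18 (0.10, M -0.27).

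Unthinned shares of cells with a Mki67 UMI were 18.1%, 13.9%, 4.54%, 10.1% and 4.53% in myocyte-like and 22.0%, 13.4%, 4.52%, 7.24% and 11.4% in stromal-like cells, in the order of libraries used above. At a minimum of 5 CPM in place of 20 CPM, genes past 2-fold in myocyte-like cells numbered 797 (372 at 20 CPM), 579 (249), 1275 (514), 1508 (794) and 1650 (840) for TBX18 over GFP at day 3 and day 14, A83-01, and day 14 over day 3 with GFP and with TBX18. In stromal-like cells they numbered 184 (106), 292 (128), 836 (432), 2570 (1386) and 3071 (1587). A pseudocount of 5 CPM left each count within 1.5 times. No paired analysis was possible because each group has 1 library and the labels give no replicate numbers.

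Depth limits the rarest values: Ccnb1 and Ccna2 rest on 61 and 80 UMIs in myocyte-like cells with A83-01, and shares in single cells depend on the thinning to 5000 UMIs.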
